A study of Caenorhabditis elegans with 2 samples.

Results

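Strong DAF-8::EGFP peaks at one-directional promoters were selected on signal and position: they were the peaks of the list comparing both replicates that had an authors' signal of 35 or more and a summit near protein-coding starts of a single strand. The window ran from 1000 bp upstream to 250 bp downstream of a transcript start, and summits at most 200 bp away from genes of rRNA, tRNA, snoRNA or snRNA were left out. Of 101032 ranked peaks, 1540 met the rule, at 1470 genes. They were 6.18% of the 24919 peaks at one-directional promoters, the same share as among all ranked peaks (6.21%), and 24.5% of the 6278 peaks with a signal of 35 or more. Members were thus chosen by their signal, which is given as a description with no test.

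The data are chromatin immunoprecipitation with sequencing (ChIP-seq) peak lists from whole Caenorhabditis elegans at the L4 larval stage, aged 47 hours, grown from hatchlings that had been starved at L1 after bleaching. There was 1 group with 2 biological replicates. All worms were of strain OP790, with the integrated transgene wgIs790, in which daf-8 is fused to TY1, EGFP and 3xFLAG and is accompanied by unc-119(+). The background allele is unc-119(tm4063), which the added unc-119(+) rescues. All libraries come from 1 transgenic line, the labels list no mutation of the worm's own daf-8, and whole worms mix all tissues, so no cell type can be assigned to a peak. The antibody recognised the green fluorescent protein tag. Neither worms lacking the tag nor an input library were analysed here, so recovery that does not need DAF-8 cannot be told apart from recovery that does. Read counts are in none of the lists, so the depth is unknown. The labels do not say how the cultures of the replicates were separated, and the lists of both derive from 1 shared alignment file, taken to be a control.

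DAF-8 is a receptor-regulated SMAD, a protein that is phosphorylated by TGF-beta receptors and then acts on genes in the nucleus. In C. elegans the ligand DAF-7 signals through the receptors DAF-1 and DAF-4 to DAF-8 and DAF-14, which oppose the co-SMAD DAF-3 and its partner DAF-5 and so keep larvae from entering the dauer resting stage. SMAD proteins bind DNA through the short core GTCT, or AGAC on the other strand, and usually do so together with other factors. Here a one-directional promoter has protein-coding starts of a single strand in the window. A peak there can thus be placed upstream or downstream of the start without a rival start on the opposite strand in that window. Gene bodies were not excluded, so a summit may still lie inside a protein-coding transcript.

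The sequences at the summits of members that the authors' replicate threshold kept, or of members that hold the motifs counted further on, are shown first. Each is 101 bases of WBcel235 from RefSeq, centred on the summit and written 5′ to 3′ on the strand of the promoter unless stated. The first set shows GTCT or AGAC in capitals at the 3 ribosomal protein genes with the strongest peaks, at serp-1.1, at unc-115 (an actin-binding LIM protein) and at cbp-1 (the CBP/p300 histone acetyltransferase).
rpl-3: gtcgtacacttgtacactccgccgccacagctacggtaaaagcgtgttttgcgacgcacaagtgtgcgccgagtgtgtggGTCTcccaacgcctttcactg
rpl-35: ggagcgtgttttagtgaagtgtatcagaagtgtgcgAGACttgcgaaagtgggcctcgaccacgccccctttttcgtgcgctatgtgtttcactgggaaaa
rps-24: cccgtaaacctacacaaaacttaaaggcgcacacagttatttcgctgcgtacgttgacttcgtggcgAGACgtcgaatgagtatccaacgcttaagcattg
serp-1.1: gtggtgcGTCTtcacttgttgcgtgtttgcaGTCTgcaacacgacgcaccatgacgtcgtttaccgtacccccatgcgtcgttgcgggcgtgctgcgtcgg
unc-115: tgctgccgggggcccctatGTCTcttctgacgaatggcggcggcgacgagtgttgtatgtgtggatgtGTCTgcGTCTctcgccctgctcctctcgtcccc
cbp-1: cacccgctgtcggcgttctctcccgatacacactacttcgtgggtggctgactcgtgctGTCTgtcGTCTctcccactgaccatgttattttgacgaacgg
The windows lie at chrIII:3867536-3867636 for rpl-3, chrIII:7854670-7854770 for rpl-35, chrIV:385554-385654 for rps-24, chrX:15841226-15841326 for serp-1.1, chrX:10146774-10146874 for unc-115 and chrIII:9765653-9765753 for cbp-1, all on the plus strand. The core stood once in each ribosomal protein window, 2 times in serp-1.1 and cbp-1 and 3 times in unc-115.

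The second set shows CGCG in capitals, the motif whose share differed most in absolute terms between weaker peaks and the kept members. It is shown at ftt-2 (a 14-3-3 protein), epn-1 (epsin, an endocytic adaptor) and hsp-1 (the constitutive cytosolic Hsp70).
ftt-2: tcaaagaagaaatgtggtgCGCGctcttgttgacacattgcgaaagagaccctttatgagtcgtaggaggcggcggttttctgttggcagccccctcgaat
epn-1: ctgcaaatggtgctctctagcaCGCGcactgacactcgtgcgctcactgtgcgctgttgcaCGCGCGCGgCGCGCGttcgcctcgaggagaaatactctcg
hsp-1: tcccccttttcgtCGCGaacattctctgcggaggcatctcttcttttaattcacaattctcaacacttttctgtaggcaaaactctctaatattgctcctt
These windows are chrX:11605908-11606008 (minus strand), chrX:14818918-14819018 (minus strand) and chrIV:17278589-17278689 (plus strand). The epn-1 window held 6 overlapping or separate copies, and the other windows 1 each.

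The third set shows CTCTCT or GAGAGA in capitals at puf-9 (a Pumilio-family RNA-binding protein), B0348.10 and gpb-1 (a G protein beta subunit).
puf-9: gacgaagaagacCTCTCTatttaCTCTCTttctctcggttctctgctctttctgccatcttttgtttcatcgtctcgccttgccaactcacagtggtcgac
B0348.10: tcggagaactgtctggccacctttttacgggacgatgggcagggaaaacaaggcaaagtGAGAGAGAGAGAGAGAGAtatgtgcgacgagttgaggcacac
gpb-1: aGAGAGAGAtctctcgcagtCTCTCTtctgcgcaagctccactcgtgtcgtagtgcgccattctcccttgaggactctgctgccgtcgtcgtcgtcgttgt
These windows are chrX:5841203-5841303 (plus strand), chrV:8797-8897 (minus strand) and chrII:11746873-11746973 (minus strand). B0348.10 has an unbroken GA run, whereas the copies in puf-9 stand apart.

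The fourth set shows the core promoter word TATAAA in capitals at cdc-48.1 (the AAA ATPase p97) and at the histone gene his-37, neither of which holds GTCT.
cdc-48.1: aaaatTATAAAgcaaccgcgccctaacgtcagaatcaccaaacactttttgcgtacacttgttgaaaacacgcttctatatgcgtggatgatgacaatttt
his-37: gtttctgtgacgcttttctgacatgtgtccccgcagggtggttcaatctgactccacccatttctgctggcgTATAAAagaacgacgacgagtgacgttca
These windows are chrII:10563518-10563618 (minus strand) and chrV:9546983-9547083 (plus strand).

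The fifth set shows a run of 60 identical bases in capitals that the windows at mtcu-2 and vps-39 (a subunit of the HOPS vesicle-tethering complex) share.
mtcu-2: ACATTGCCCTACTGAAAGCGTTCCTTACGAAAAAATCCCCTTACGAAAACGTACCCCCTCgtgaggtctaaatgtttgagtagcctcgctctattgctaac
vps-39: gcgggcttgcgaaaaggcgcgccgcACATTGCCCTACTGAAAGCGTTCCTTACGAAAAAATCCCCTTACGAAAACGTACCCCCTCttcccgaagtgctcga
The windows are chrII:10033625-10033725 (minus strand, that of mtcu-2) and chrV:14038819-14038919 (plus strand, opposite to vps-39). The run therefore faces opposite ways relative to the genes. Their signals were 111 and 78.7, and reads that fall within the run cannot be assigned to either locus by that stretch alone. By the copy rule given for pck-2 below, the vps-39 window had 21 genomic copies and the mtcu-2 window 1. That rule needs at least 80 aligned bp, so the run of 60 alone does not count as a copy. Whether the run also lies at further loci was not tested.

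The strongest member lay 139 bp downstream of the start of pck-2, which encodes a phosphoenolpyruvate carboxykinase, the entry step of gluconeogenesis. Its signal was 135 in the pooled reads, 77.4 in replicate 1 and 58.5 in replicate 2 (68.0 ± 13.4, SD, n = 2). The summit fell in an untranslated exon, and the 101 bases around it were soft-masked as repeat over their whole length, occurred 7 times exactly in the genome and had 789 copies of at least 90% identity over at least 80 bp. The part of those copies in the signal was not tested. Next came rpl-3, a protein of the large ribosomal subunit, with 118 in the pooled reads, 48.09 in replicate 1 and 69.6 in replicate 2, at 268 bp upstream of the start. Peaks at cdc-48.1 (161 bp upstream) had 112 in the pooled reads, with 35.7 in replicate 1 and 79.0 in replicate 2 (57.3 ± 30.6, SD, n = 2), the widest spread of the first 5. At mtcu-2, 462 bp upstream and inside an annotated intron, the values were 111, 40.2 and 66.1. The ftt-2 peak, 539 bp upstream, had 106 in the pooled reads, 56.1 in replicate 1 and 47.3 in replicate 2 and lay within 200 bp of 3 annotated noncoding RNA genes. Of these 5, pck-2 and ftt-2 were higher in replicate 1 and the others in replicate 2.

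Genes of protein synthesis, folding and energy metabolism supplied several of the next members. The rpl-35 peak, 414 bp upstream of the start of another large-subunit gene, had 90.6 in the pooled reads, with 39.03 and 54.6 in replicates 1 and 2. The peak at cox-5B, a cytochrome c oxidase subunit, lay 19 bp upstream and had 86.0, with 33.9 and 50.9. The peak at hsp-3, an endoplasmic reticulum Hsp70 related to BiP, had its summit 6 bp upstream of the start and a signal of 85.7. Its replicates, at 47.9 and 49.3, differed by less than any other among the first 14 members except K12H4.5 (42.4 and 42.8). The rps-24 peak, 283 bp upstream of a small-subunit gene, had 71.5, with 31.8 and 35.5. All of these lay outside protein-coding transcripts.

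Other strong members stood at genes of varied roles. The peak at rpa-2, a subunit of the single-stranded DNA binding replication protein A, had a signal of 99.9, with 69.5 in replicate 1 and 32.4 in replicate 2, and its window had 8 genomic copies. The serp-1.1 peak had 99.0, with 46.5 and 50.9. The his-37 peak, 72 bp upstream, had 89.9, with 50.2 and 43.3. At sms-3, a sphingomyelin synthase gene, 1 member lay 574 bp upstream with 89.1 and a second, 178 bp downstream of another of its starts, had 65.4. The gene mstr-1 also had a pair of kept members, at 979 bp upstream with 87.8 and at 258 bp upstream with 81.3. The peak at ins-39, an insulin-like peptide gene, had 83.3 and was uneven, with 24.9 in replicate 1 and 52.1 in replicate 2. The eel-1 peak, at a HECT ubiquitin ligase gene, had 83.3 with 52.4 and 36.97. The gpb-1 peak had 79.5 with 39.1 and 35.99, and the peak at vit-6, a yolk protein gene, lay in an intron 178 bp downstream of the start with 78.5, 39.1 and 42.5. The remaining members of the first 25 were those of vps-39, nspc-17 (76.3), T28F4.5 (74.5), R107.5 (72.7) and tos-1 (72.6). Which replicate was higher varied from gene to gene.

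**Figure D1:**
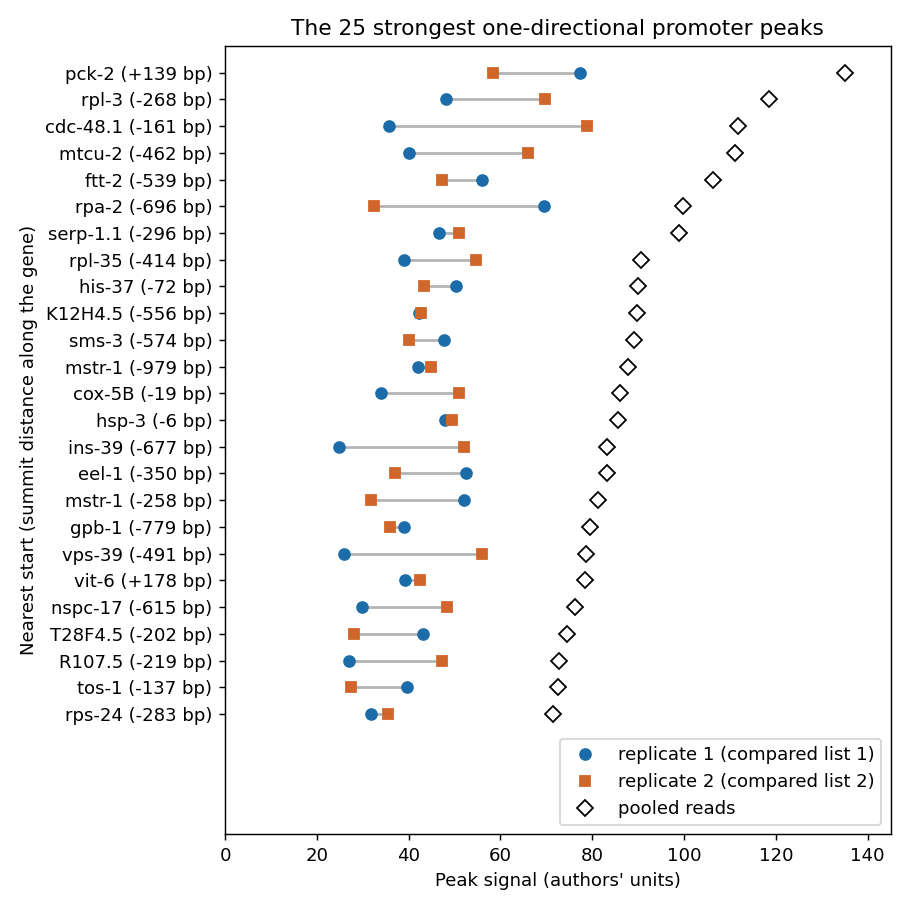
The 25 one-directional promoter peaks of highest signal, by the gene of the nearest start, with the summit's distance in bp. The horizontal axis is the authors' signal: open diamonds give the pooled reads (71.5 at rps-24 to 135 at pck-2), circles replicate 1 and squares replicate 2, joined by a line. The pooled value exceeds both replicates in every row, and the wider lines, as at cdc-48.1 and rpa-2, mark uneven replicates.

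The irreproducible discovery rate (IDR) used here is the global one. It is the expected share of irreproducible peaks among all those ranked at least as high when both replicates are compared. The authors' threshold was taken as 0.01. Of the 1540 members, 47 had an IDR of 0.01 or lower (3.05%), and all 47 stood in the authors' thresholded list; 46 genes had such a member in their window. Among all ranked peaks 0.259% passed this IDR and 0.238% were kept, and among the 4738 strong peaks elsewhere 4.03% passed. The rule and the IDR both use signal, so nothing is read from the difference from all peaks. Another 2 peaks at one-directional promoters passed with signals under 10. By overlap of at least 1 bp, 55 members lay in the pooled thresholded list (3.57%, against 0.325% of all ranked peaks and 4.35% of strong peaks elsewhere). In the thresholded lists of the replicates alone, 11 members overlapped a peak of replicate 1 (0.714%, against 0.0703% and 0.992%) and 16 a peak of replicate 2 (1.04%, against 0.0831% and 1.16%). Only 5 members stood in both of these lists: those at pck-2, rpl-3, ftt-2 and hsp-3 and a weaker ftt-2 peak with a signal of 51.0. The weaker ftt-2 peak overlaps the stronger one and was matched by the same replicate peaks (56.1 and 47.3), so it adds no further locus. Its own paired values were 31.6 in replicate 1 and 21.3 in replicate 2. Without thresholds, 1360 members overlapped a ranked peak of replicate 1, 1371 one of replicate 2 and 1200 one of each.

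Across members the signal in the pooled reads had a median of 39.7 and reached 135. In replicate 1 it ran from 4.69 over a median of 19.4 to 77.4, and in replicate 2 from 2.07 over 21.0 to 79.0. For the 47 kept members the lowest, median and highest were 53.4, 72.6 and 135 in the pooled reads, 24.9, 36.3 and 77.4 in replicate 1 and 27.4, 37.3 and 79.0 in replicate 2. The kept and other members overlapped in pooled signal, since the highest of the others was 65.6. Replicate 1 was higher in 695 members and replicate 2 in 845. These replicate values are those of the compared lists, which pair 1 peak of each replicate with a member. A neighbouring peak of the replicate's own ranked list that overlapped the member was stronger than the paired one in 26 members for replicate 1 and 45 for replicate 2. The higher value was over 2-fold the lower in 329 members (21.4%), or in 287 with the strongest overlapping peak, and in 4 of the 47 kept ones by either reading, where the largest ratio in the compared lists was 2.21. Spearman's correlation between the replicates across members was -0.369, across the kept members 0.0415 and across the 23379 weaker peaks at one-directional promoters 0.0695. These are descriptions across sites that share their libraries, and choosing members on the pooled signal bounds the sum of the 2 values from below. Of the 17 members with a pooled signal of 60 or more that were not kept, 6 were over 2-fold apart in the compared lists. Y54G11A.2 had 63.4 in the pooled reads, with 52.7 in replicate 1, 7.27 in replicate 2 and an IDR of 0.674, while a neighbouring replicate 2 peak that also overlapped it had 23.8. The kel-3 peak had 65.2, with 17.0 and 46.2, and the Y69A2AR.31 peak had 65.6, with 23.6 and 40.4 and an IDR of 0.0148. Others were even, such as ints-4 (64.8, with 31.0 and 27.4) and epg-7 (63.3, with 30.6 and 27.6). These 5 genes were named after their values were seen.

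**Figure D2:**
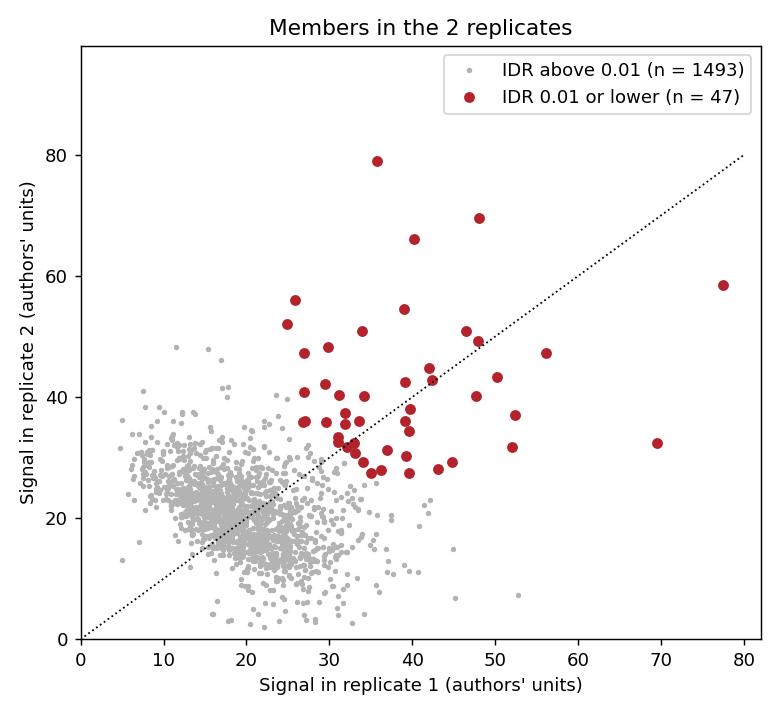
Signal of each member in replicate 1 (horizontal) and replicate 2 (vertical), in the authors' units, with the line of equal values dotted. Grey points are the 1493 members with an IDR above 0.01, and red points are the 47 at or below it. The grey points run downward from upper left to lower right (Spearman's correlation -0.369 over all members), and the red points start at 24.9 in replicate 1 and at 27.4 in replicate 2.

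At the lower edge of the rule, the last members inside were those of tlk-1, EGAP5.1, sop-3, gbf-1 and F54F2.6, with signals from 35.01 to 35.03. Just outside were peaks at Y65B4BL.7, R04B3.1, F25B5.5, F32B5.6 and nyn-2, from 34.96 to 34.98.

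Summits of members had a median position of -280 bp (negative values lie upstream of the nearest start), with quartiles at -628 and 17.3 bp. The weaker peaks had a median of -328 bp with quartiles at -664 and -6 bp. With each replicate's own summits the median was -281.5 bp in replicate 1 and -273 bp in replicate 2, an SD of 6.01 (n = 2). Downstream of the start lay 26.4% of members and 24.3% of weaker peaks, and within 100 bp of it 18.2% and 18.6%. The 47 kept members had a median of -278 bp and narrower quartiles, -515 and -126.5 bp, and 10.6% of them lay downstream. The bin holding most of the kept members, from 250 to 125 bp upstream, had 9 of them (19.1%), against 9.44% of weaker peaks, and the first 125 bp downstream had 1, at Y39E4B.6.

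**Figure D3:**
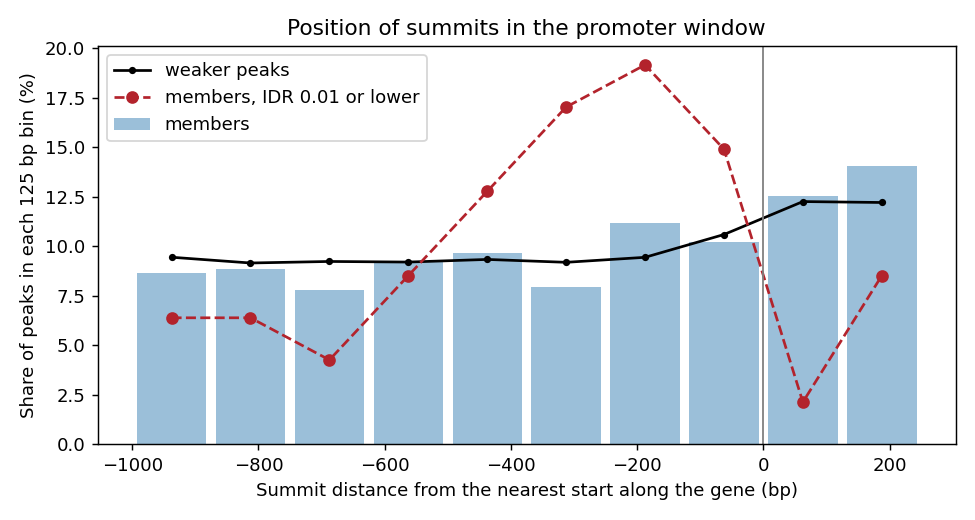
Share of peaks in each 125 bp bin of summit distance from the nearest start, with negative distances upstream. Bars are all members, black points the weaker peaks and red points the 47 kept members. The bars run from 7.79%, in the third bin, to 14.03% in the last and the black points from 9.15% to 12.3%, while the red points stand highest at 250 to 125 bp upstream (19.1%).

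By annotation, 611 member summits (39.7%) lay outside protein-coding transcripts, 423 (27.5%) in coding exons, 378 in introns and 128 in untranslated exons. The weaker peaks had 40.8% outside transcripts and 26.7% in coding exons. Of the 47 kept members 32 lay outside (68.1%), 2 in coding exons (4.26%, at ubxn-3 and col-94), 9 in introns and 4 in untranslated exons. Genes of other noncoding biotypes, piRNAs left out, lay within 200 bp of 134 members and of 7 kept ones, and 13 members lay as near a piRNA gene. The share of weaker peaks near such genes was not counted, so nothing is read from these numbers. Chromosomes I, II, III, IV, V and X held 271, 236, 221, 263, 298 and 251 members, and 10, 7, 11, 4, 5 and 10 kept ones. In the same order these were 17.6, 15.3, 14.4, 17.1, 19.4 and 16.3% of members, against 14.7, 17.4, 13.4, 16.5, 22.3 and 15.6% of weaker peaks. The promoters were on the plus strand in 753 cases and on the minus strand in 787. More than 1 member stood in the window of 101 genes, and 8 genes had 3: W09B6.4, cec-2, crh-2, egl-4, mnk-1, tent-5, ubxn-3 and wwp-1. How many genes had several weaker peaks was not counted, so these gene counts have no background. The transgene adds copies of daf-8 and unc-119 sequence. Nearer than 20 kb to daf-8 lay 3 members, at rskn-1, a ribosomal S6 kinase gene, with 62.3 and 45.5 and at tmem-208 with 43.2. None lay within 20 kb of unc-119. The share of all ranked peaks so near these genes was not counted. Whether the added copies play a part in these signals was not tested.

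The lists with members at more than 1 in 4 of their genes and at least 15 genes were those of respiration, glycolysis with gluconeogenesis, the proteasome and cytosolic ribosomal proteins. Of the 13137 genes with a peak in a one-directional window 11.2% had a member, and 0.350% had a kept one. Counts over lists are read beside these shares as a description, since no test over genes was made. Most of the lists drawn up lay above the 11.2%. Cytosolic ribosomal protein genes had members at 13 of 48 (27.1%), 3 of them kept. Beside rpl-3, rpl-35 and rps-24, rpl-24.2 had 55.95 with 28.5 and 25.8 in replicates 1 and 2, and rpl-11.2 had 46.1. The other 8 ran from 35.2 at rpl-13 to 42.5 at rps-8, and rps-2, rps-11 and rps-26 were over 2-fold higher in replicate 2. The median signal over the list was 40.8, near the 39.7 of all members.

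Mitochondrial respiration genes had members at 8 of 24 (33.3%). After cox-5B these were cox-5A (45.2), cyc-2.1 and cyc-1, the cytochromes c and c1 (43.5 and 42.1), sdha-1 and sdha-2, subunits of succinate dehydrogenase (39.6 and 37.5), cox-18 (38.8) and cox-11 (36.2). Only cox-5B was kept. The count of respiration genes was 5 in a window from 500 bp upstream to 100 bp downstream and 1 at a signal minimum of 50, where 167 members are left, and that of ribosomal protein genes was 11 and 4. In the compared lists cyc-1 had 8.53 in replicate 1 and 35.2 in replicate 2. Glycolysis and gluconeogenesis genes had 5 of 16 (31.3%): pck-2, gpd-2 (glyceraldehyde-3-phosphate dehydrogenase, 45.1), pyk-1 (pyruvate kinase, 40.1), fbp-1 (fructose-bisphosphatase, 39.6) and enol-1 (enolase, 36.8). The proteasome list, with the cdc-48 genes, had 5 of 18 (27.8%), of which cdc-48.1 was kept. Its others were rpn-11 (49.9) and rpn-12 (47.2) of the regulatory particle and pas-1 (41.2) and pas-5 (40.1) of the core. The pas-1 member is also in the window of rpoa-12 and is counted for both.

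Translation factor genes had 4 of 22 (18.2%), led by eif-3.C, a subunit of initiation factor 3, with 51.5. Aminoacyl tRNA synthetase genes had 4 of 20 (20%), from ears-1 (35.8) to gars-1 (45.8). Mitochondrial ribosomal protein genes had 5 of 39 (12.8%), led by mrpl-19 (47.7), near the share over all genes. Chaperone genes had 6 of 37 (16.2%), with hsp-3 and hsp-1 kept. The hsp-1 peak, 320 bp upstream, had 67.3 in the pooled reads, with 31.1 in replicate 1 and 40.3 in replicate 2. Not kept were dnj-12 (47.1), dnj-9 (43.6), the small heat shock gene hsp-16.1 (43.2) and hsp-4, a BiP gene (38.3). Splicing and RNA binding genes had 1 of 26 (3.85%), sft-1 with 41.7, which matched by its symbol although it is related to SURF1, a mitochondrial cytochrome oxidase assembly factor. The transcription machinery list had 4 of 45 (8.89%): taf-12 (49.8), mdt-15 (45.6), rpoa-12, and rpa-2, which matched the list by its name although it encodes a replication protein.

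The DAF-7 TGF-beta list had members at 3 of 10 genes (30%), none of them kept. Beside the components named above, the list as drawn up also holds egl-4, daf-11, scd-2 and din-1, the last of which acts with DAF-12 downstream of the pathway. Of the 3 genes with a member, daf-4 alone is among those components, and its peak is counted again for the Sma/Mab pathway. The strongest stood at egl-4, which encodes a cGMP-dependent protein kinase, 495 bp upstream, with 54.01 in the pooled reads, 26.7 in replicate 1, 23.0 in replicate 2 and an IDR of 0.0461. The peak at daf-4, the type II receptor shared by both TGF-beta pathways, had 37.1, with 17.7 and 20.1, and that at din-1, a co-repressor partner of DAF-12, had 36.7, with 28.1 and 14.7. The related Sma/Mab pathway, which controls body size, had 3 of 9 (33.3%): sma-10 (42.0), daf-4 and the zinc finger co-factor sma-9 (35.99). Of the insulin list 5 of 32 had a member (15.6%). Here ins-39 was kept, and daf-16, the FOXO factor of the pathway, had 44.2 with 28.3 and 16.1. The remaining insulin-like genes ins-16, ins-13 and ins-26 had 39.2, 38.4 and 35.3. The dafachronic acid list, drawn up without din-1, had 0 of 6. The upper limit at 3 counts is 50%, a counting error over genes only. At lists of this size 1 gene more or fewer moves the share widely.

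Among transcription factors, bZIP genes had 5 of 21 (23.8%): xbp-1, a factor of the unfolded protein response (48.3), zip-11 (44.5), zip-1 (40.9), zip-2 (36.8) and zip-3 (35.7). The compared lists were over 2-fold apart at xbp-1 (29.8 and 11.9, with a neighbouring replicate 2 peak of 22.8 that also overlapped it), zip-1 (15.6 and 31.4) and zip-3 (26.1 and 6.13). Nuclear hormone receptor genes had 15 of 186 (8.06%), from nhr-145 (35.3) to nhr-141 (52.8), with nhr-49, a regulator of lipid metabolism, at 49.2 and the moulting factor nhr-23 at 47.2. The nhr-141 window was soft-masked as repeat over its whole length and had 241 genomic copies. No peak of either replicate's own ranked list overlapped the nhr-141 member. Histone genes had 4 of 22 (18.2%): his-37, his-60 (48.6), his-70 (41.4) and his-72 (41.2). Collagen and cuticle genes had 13 of 124 (10.5%), of which col-94 was kept with 61.8, 27.03 and 36.1. The list was matched by symbol, and its dpy-26 (37.5) and dpy-27 (42.0) encode dosage compensation proteins, not cuticle components. Vitellogenin genes had 1 of 6 (16.7%), vit-6, and muscle genes 3 of 24 (12.5%), myo-5 (45.1), mlc-2 (43.6) and act-5 (38.6), the last an actin of intestinal microvilli that matched by symbol.

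**Figure D4:**
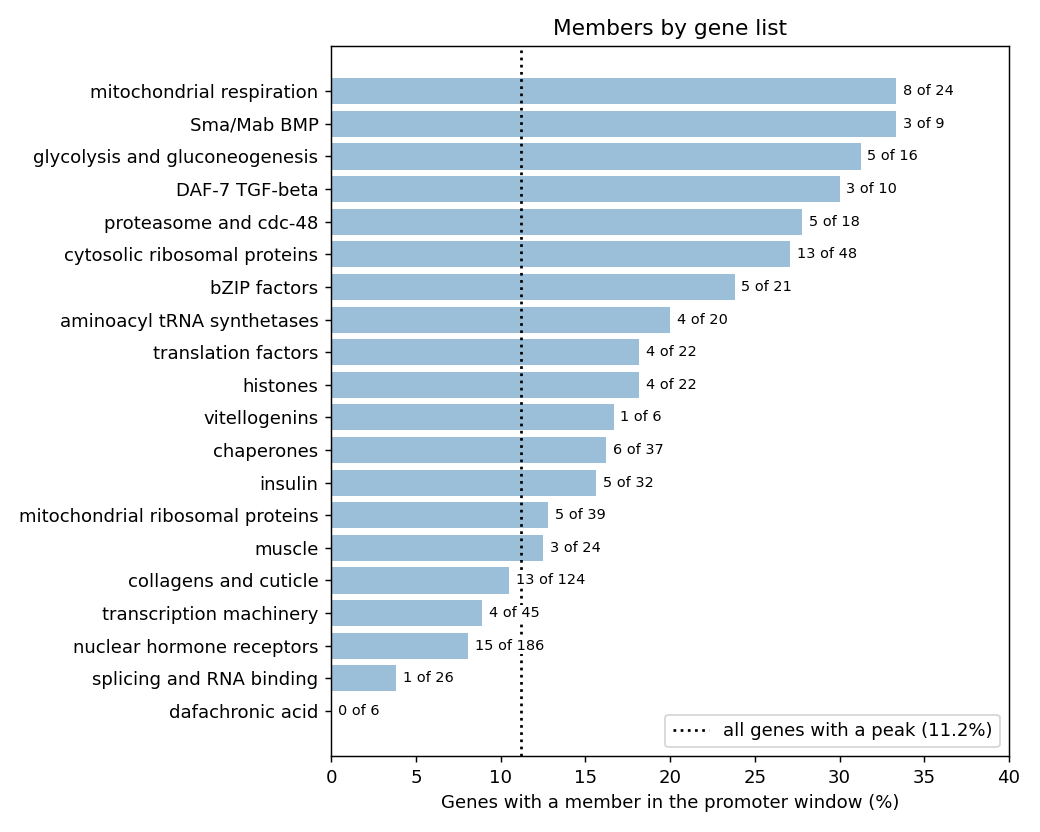
Share of the genes of each of 20 lists that had a member, among genes with any ranked peak in a one-directional window, with the counts beside the bars. The dotted line is the share over all such genes (11.2%). Most lists lie right of the line. The highest are mitochondrial respiration and Sma/Mab genes (33.3% each), glycolysis and gluconeogenesis (31.3%) and the DAF-7 list (30%). Proteasome (27.8%) and cytosolic ribosomal protein genes (27.1%) follow. Left of the line lie dafachronic acid (0%), splicing (3.85%), nuclear hormone receptors (8.06%), transcription machinery (8.89%) and collagens (10.5%).

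Member summits were richer in G and C than those of weaker peaks. The 101 bases held 43.5% ± 9.38 G and C (SD over 1540 members), against 38.0% ± 8.69 over the weaker peaks and 49.3% ± 9.01 over the 47 kept members. At the summits of each replicate alone the mean was 43.7% and 43.4% (SD 0.166, n = 2). G and C followed signal in steps, from 36.4% at signals under 10 to 42.0% at 35 to 40 and 48.6% at 60 or more. The 192 strong peaks at divergent promoters, where starts lie on both strands, had 43.4% ± 10.1. How far G and C of the fragments moves with recovery or sequencing was not tested. Soft-masked repeat made up 24.2% of bases in members, 29.7% in weaker peaks and 14.7% in kept members. A second genomic copy of the window existed for 146 members (9.48%) and for 8.48% of weaker peaks. Windows with 10 or more copies were found for 53 members (3.44%), 3.05% of weaker peaks and 4 of the kept members (8.51%). Among the kept members 5 had a second copy: pck-2, rpa-2, vps-39, C29F9.12 and Y17D7C.1, the last with 167 copies. Runs of 30 or more identical bases joined 28 members in 21 pairs, and mtcu-2 with vps-39 was the only pair in which both were kept.

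The SMAD core GTCT was denser at summits than 300 to 400 bp away. Members had 0.595 per 100 bp on either strand at the summit and 0.496 in the flanks, a difference of 0.0996, and with each replicate's own summits the difference was 0.0984 and 0.118 (SD 0.0136, n = 2). The weaker peaks had 0.531 and 0.476, a difference of 0.0543. The kept members had 0.822 and 0.553, a difference of 0.268, and the strong divergent-promoter peaks 0.686 and 0.484. Because summits are also richer in G and C, GTCT was set beside the other 11 orders of its letters, a comparison added after the values were seen. The ratio of summit to flank was 1.20 for GTCT in members, the fourth of 12, with the others from 1.02 to 1.25 and TTGC highest. In kept members the ratio was 1.49, second to TCGT at 1.61, with the others from 0.624. In weaker peaks it was 1.11, the first of the 12, where the others reached 1.105. In members 3 other words of the same letters had a higher ratio than GTCT.

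**Figure D5:**
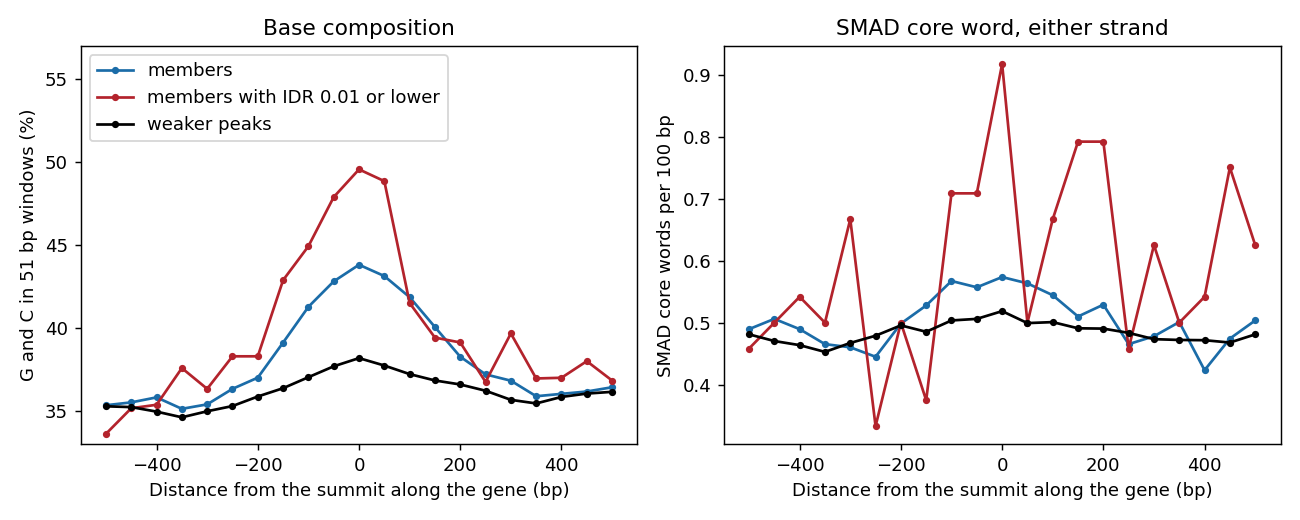
Left, mean share of G and C in 51 bp windows from 500 bp before to 500 bp after the summit along the promoter's strand; right, the SMAD core word (GTCT, or AGAC on the other strand) per 100 bp in the same windows. Blue is all members, red the 47 kept members and black the weaker peaks. G and C peak at the summit in all 3 groups, and the GTCT line of the 47 kept members moves widely from window to window because few sites enter it.

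Other words were counted on both strands within 50 bp of the summit, beside the window upstream by 300 to 400 bp and beside the 101 bases from 125 to 25 bp before every annotated protein-coding start. GTCT was in 43.2% of members, 38.1% of their upstream windows, 40.2% of weaker peaks, 38.3% of all promoters and 28 of the 47 kept members (59.6%, 95% Wilson interval 45.3 to 72.4%, counting error over regions only). GTCT followed directly by AGAC was in 0 of 1540 members and in 0.0684% of weaker peaks. The upper limit at 3 counts is 0.195%, a counting error over regions only that leaves out the spread between replicates. CGCG was in 19.1% of members, 9.22% of their upstream windows, 11.7% of weaker peaks, 11.3% of all promoters and 20 kept members (42.6%, interval 29.5 to 56.7%), whose upstream windows held it in 2. GCGCGC, which contains CGCG, was in 2.73% of members, 1.09% of weaker peaks and 8 kept members. CTCTCT was in 9.35% of members, 5.45% of their upstream windows, 5.38% of weaker peaks, 7.57% of all promoters and 11 kept members (23.4%, interval 13.6 to 37.2%), with 1 in the upstream windows.

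Words rich in A and T had lower shares in members than in weaker peaks. TATAAA was in 7.21% of members, 9.68% of weaker peaks and 16.4% of all promoters. It was in 5 kept members (10.6%, interval 4.63 to 22.6%), among them cdc-48.1 and his-37. The word TGATAA, known from sites of GATA factors, was in 6.30% of members, 8.93% of weaker peaks and 1 kept member. TTTCAG, which resembles the worm splice acceptor, was in 15.97% of members, 19.4% of weaker peaks and 3 kept members, whose upstream windows held it in 10. The E-box CACGTG was in 3.05% of members and 2.16% of weaker peaks. The heat shock type word, GAA and TTC with 2 bases of any kind between, was in 6.17% and 6.502%. CGAACC, a word of the tRNA gene promoter, was in 2.53% and 1.85%. Among all 6-base words in at least 5% of members, chosen after their values were seen, CGCACA had the highest ratio to weaker peaks (5.91% against 2.43%, and 19.1% of kept members), followed by GCCAGC (5.00% against 2.15%), and ATGAAT the lowest (5.19% against 9.004%, and 0 kept members). A match is a string of letters and shows no binding by any factor.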

How the data were processed

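The authors deposited ranked and thresholded peak lists on ce11 for each replicate, for pooled reads and for the comparison of both replicates. Per the file headers and columns, signal is the authors' value per peak (unit not given), and a separate deposited column gives the −log10 of the IDR. Aligner, peak caller and depth scaling: not given in the sources used here. Replicate 1 is compared list 1 and replicate 2 list 2: 42903 list-1 peaks equal peaks of replicate 1 in position and signal, and 42352 list-2 peaks those of replicate 2. Peaks were intersected with Ensembl release 115 protein-coding starts, and sequence came from RefSeq WBcel235, using Python 3.11.15, pandas 2.3.3 and blastn 2.17.0; the counting code was checked on simulated data. The members, the 20 gene lists (by symbol) and the 11 motifs were chosen with earlier results of these data known. Named are the 25 loci of highest signal after merging overlaps, list genes with a member, the 5 on each side of the signal minimum and members in both replicates' thresholded lists. Of the lists of ribosomal proteins, translation factors, tRNA synthetases, nuclear hormone receptors and collagens only some genes are named, chosen after their values were seen. Genes outside these groups were also chosen after their values were seen, among them the kept members whose motifs or copies are described. With 1 group of 2 replicates no test was made.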

Additional observations from a re-analysis of the deposited data

How the results depend on the processing

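The settings tried were a signal minimum of 50, the IDR threshold in place of the minimum, a window from 500 bp upstream to 100 bp downstream, 500 bp from small RNA genes, whole peaks in place of summits, starts of the longest transcript only, other sequence windows, each replicate alone, and, added after the data were seen, no peaks with a second genomic copy. The GTCT difference between summit and flank stayed positive at each setting where it was computed. Weaker peaks were not recomputed at these settings, so a reversal of any difference between members and weaker peaks was not tested. The number of members was 167 at a minimum of 50, 49 by IDR and 849 in the narrower window. Members overlapping the thresholded list numbered 49, and 11 to 16 with a single replicate. The median distance was -268 bp at a minimum of 50, -175 bp in the narrower window, -269 bp for whole peaks, -331 bp for longest transcripts, -257 bp without second copies and -281.5 to -273 bp with a single replicate. G and C was 48.4% at a minimum of 50, 49.1% by IDR, 43.2% for longest transcripts and without second copies, 43.8% within 25 bp, 43.0% within 100 bp and 43.4 to 43.7% with a single replicate. The GTCT difference was 0.262 at a minimum of 50, 0.237 by IDR, 0.0814 in the narrower window and 0.0984 to 0.118 with a single replicate. Ribosomal protein genes with a member numbered 4 at a minimum of 50 and 3 by IDR, against 13, and respiration genes 1, 1 and, in the narrower window, 5, against 8. CGCG was in 26.9% of members at a minimum of 50, 40.8% by IDR and 22.4% in the narrower window, CTCTCT in 15.6% and 24.5% at the first 2 settings and TTTCAG in 11.98% and 6.12%. The cause was not tested. No paired analysis was possible because there is 1 group. Unknown depth limits all signals, and without a sample lacking the tag no signal can be assigned to DAF-8.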
